A study of Homo sapiens with 6 samples.

Results

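Antisense RNAs are transcripts read from the strand opposite to a named gene, and human gene nomenclature gives them the symbol of that gene followed by -AS and, where there are several, a number. The set described here holds 216 such RNAs of 24432 gene symbols. Each has a symbol of that form that does not start with HOX and reached at least 1 FPKM (fragments per kilobase of transcript, scaled to the library's mapped reads, a level corrected for length and depth) in at least 3 of 6 libraries. The files held 1083 symbols of that form. Of the others, 12 belonged to the HOX clusters and 855 stayed under the level rule, 102 of them listed at 0 in every library. The levels in all 6 libraries thus chose the set. The 216 RNAs name 214 sense genes, because DLGAP1 and TSPEAR each have 2 antisense RNAs in it. Of these sense genes 164 passed the same level rule and were tested, 46 did not pass it and 4 (AADACL2, BBOX1, CCDC144NL and SAPCD1) were not among the symbols analysed here.

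All 6 libraries are labelled PLC/PRF/5, an established human hepatocellular carcinoma cell line. The 3 sensitive libraries carry the genotype WT and the treatment control. The 3 resistant libraries carry a lenvatinib-resistant genotype and lenvatinib treatment, and their cells had been grown under rising doses of this multikinase inhibitor until they proliferated quickly at the highest dose. Both groups were grown in the same serum-supplemented medium. Only the resistant libraries carry the drug label, so acquired resistance and current exposure to the drug cannot be told apart, and the labels do not say whether the 3 libraries of a group came from separate cultures or clones. The p-values therefore rest on the variation among these libraries alone, part or all of which may be technical.

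An antisense RNA can start next to the promoter of its sense gene and run away from it, or it can run back across the body of the gene. Divergent promoters, which fire in both directions, are a common source of the first kind. Individual antisense RNAs are known to recruit chromatin-modifying proteins, to change splicing or stability of the sense transcript by pairing with it, or to act far from the locus. Many are short-lived, because the nuclear exosome degrades them. Such RNAs are usually far less abundant than protein-coding messages.

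In GENCODE release 29, 213 of the pairs could be placed on 1 chromosome and 212 of these lay on opposite strands. HILPDA-AS1 and HILPDA were annotated on the same strand. Exons of the 2 genes shared bases in 166 pairs, with a median of 13.3% of the antisense exon bases shared. The gene bodies overlapped without shared exon bases in 33 pairs and did not overlap in 14. In 79 pairs the 2 starts lay on opposite strands and within 1000 bases of each other. The strand setting of the counting is not given in the sources used here, so in the pairs with shared exon bases reads of the gene and of its antisense partner cannot be told apart.

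RefSeq start windows, which span 250 bases before to 50 bases after an annotated start, were found for 177 of the 216 RNAs in the GRCh38.p14 table. These windows had a median GC content of 64%, against 58.3% over all 27305 windows of the table. Their median ratio of observed to expected CpG was 0.791, against 0.58 over all windows. The SP1 motif GGGCGG was present on either strand in 61% of them and in 44.6% of all windows. The ETS motif CCGGAAG was present in 18.6% and 10.7%, and the TATA box TATAAA in 6.21% and 12%. The CCAAT box CCAAT (34.5% against 35.7%), the AP-1 motif TGANTCA (6.21% against 7.76%), the CRE motif TGACGTCA (2.82% against 1.98%), the NRF1 motif (1.13% against 1.36%) and the HNF4A motif CAAAGTCCA (0.565% against 0.359%) were at more similar shares. The ETS motif was in 28.6% of the 63 windows of RNAs called higher in the resistant libraries, in 12.7% of the 55 called lower and in 13.6% of the 59 not called. In the same order, SP1 was in 50.8%, 63.6% and 69.5% and the CCAAT box in 30.2%, 41.8% and 32.2%. No difference between these shares was tested. All motifs were searched on both strands, AP-1 and CRE sites can share bases, and a match is a description of the letters, not evidence of binding. In 29 of the 155 RNAs whose sense gene also had a window, the RefSeq start of the sense gene fell inside the window of the antisense RNA.

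The windows of 6 RNAs, chosen after the values were seen, are shown as a description. Of these, 5 hold the start of the sense gene as well, so that 1 short stretch lies upstream of both. All 6 windows are written 5′ to 3′ on the strand of the antisense RNA in GRCh38.p14, with the motifs named above in capitals. Counting from 1 at the 5′ end, the sense gene starts, on the other strand, at base 17 in the ELF3-AS1 window, 159 in ZNF528-AS1, 175 in SCAMP1-AS1, 142 in FOXD3-AS1 and 130 in CPNE8-AS1. The VPS9D1-AS1 window holds no start of VPS9D1 and is shown for its 5 SP1 motifs.
ELF3-AS1 (chr1:202010304-202010603, minus strand): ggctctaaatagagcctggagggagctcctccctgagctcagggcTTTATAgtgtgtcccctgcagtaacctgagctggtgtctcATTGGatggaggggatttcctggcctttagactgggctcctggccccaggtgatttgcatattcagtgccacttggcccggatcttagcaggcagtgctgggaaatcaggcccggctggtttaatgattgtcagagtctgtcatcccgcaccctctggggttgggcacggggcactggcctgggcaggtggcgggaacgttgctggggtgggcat
ZNF528-AS1 (chr19:52397708-52398007, minus strand): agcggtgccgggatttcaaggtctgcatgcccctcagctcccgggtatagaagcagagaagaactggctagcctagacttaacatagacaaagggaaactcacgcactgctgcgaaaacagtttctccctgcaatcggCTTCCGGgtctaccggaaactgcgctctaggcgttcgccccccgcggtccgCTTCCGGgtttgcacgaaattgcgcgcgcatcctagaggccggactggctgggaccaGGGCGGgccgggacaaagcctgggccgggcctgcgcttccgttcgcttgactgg
SCAMP1-AS1 (chr5:78360492-78360791, minus strand): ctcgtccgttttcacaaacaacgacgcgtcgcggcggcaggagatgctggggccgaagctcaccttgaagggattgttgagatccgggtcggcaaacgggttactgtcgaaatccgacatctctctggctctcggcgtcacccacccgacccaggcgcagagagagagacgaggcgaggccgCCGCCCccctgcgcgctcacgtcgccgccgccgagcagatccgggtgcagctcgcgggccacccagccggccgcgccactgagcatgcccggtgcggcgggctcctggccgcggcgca
FOXD3-AS1 (chr1:63322409-63322708, minus strand): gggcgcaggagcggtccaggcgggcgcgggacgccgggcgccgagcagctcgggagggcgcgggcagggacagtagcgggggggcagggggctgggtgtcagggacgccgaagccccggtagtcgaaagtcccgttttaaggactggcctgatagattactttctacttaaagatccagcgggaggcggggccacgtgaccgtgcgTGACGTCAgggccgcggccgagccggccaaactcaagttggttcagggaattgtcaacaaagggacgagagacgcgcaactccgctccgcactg
CPNE8-AS1 (chr12:38905462-38905761, plus strand): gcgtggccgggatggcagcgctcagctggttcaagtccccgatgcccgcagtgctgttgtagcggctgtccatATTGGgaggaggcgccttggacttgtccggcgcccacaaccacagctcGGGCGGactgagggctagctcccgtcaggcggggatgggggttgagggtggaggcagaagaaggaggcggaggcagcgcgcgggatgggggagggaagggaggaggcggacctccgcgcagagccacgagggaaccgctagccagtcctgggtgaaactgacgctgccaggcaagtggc
VPS9D1-AS1 (chr16:89711606-89711905, plus strand): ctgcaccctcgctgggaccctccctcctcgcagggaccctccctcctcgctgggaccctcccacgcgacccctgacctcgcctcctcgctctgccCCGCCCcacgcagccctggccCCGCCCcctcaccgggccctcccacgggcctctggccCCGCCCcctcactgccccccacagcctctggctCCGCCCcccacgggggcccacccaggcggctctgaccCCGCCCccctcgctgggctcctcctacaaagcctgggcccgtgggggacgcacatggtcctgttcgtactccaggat
The ELF3-AS1 window holds a TATA box and a CCAAT box, the ZNF528-AS1 window 2 ETS motifs and 1 SP1 motif, and the SCAMP1-AS1 window 1 SP1 motif. The FOXD3-AS1 window holds a CRE motif, and the CPNE8-AS1 window a CCAAT box and an SP1 motif.

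Facts of the whole series bear on every value below. Whole reads recovered from the FPKM values gave library totals that lay within 3.46% of each other, at about 39400000 reads or fragments in the median library. The sensitive replicate 3 correlated with the other sensitive libraries at r = 0.952 and 0.964 across genes, whereas the other pairs within a group lay between 0.994 and 0.996. Of 18 hepatocyte and hepatoma markers, 17 were tested and all 17 were lower in the resistant libraries, where their summed level was 18.4 to 49.8 FPKM against 5596 to 6083 FPKM in the sensitive libraries, and TTR was listed at 0 in every resistant library. The labelled hepatocellular identity was thus carried by its markers in the sensitive libraries and was nearly absent from the resistant ones. Whether the libraries labelled resistant descend from the labelled line was not tested, and every fold change below compares libraries as labelled. Of 5 cholangiocyte markers 2 rose and 1 fell, with a summed level of 28.7 to 33.8 FPKM in the sensitive and 119 to 136 FPKM in the resistant libraries. Most of the resistant sum was KRT7 (0.237, 0.29 and 0.968 against 114, 107 and 96.9 FPKM). SOX9 rose from 3.49, 4.38 and 1.84 to 11.3, 11.9 and 11.2 FPKM, and EPCAM fell from 30, 27.6 and 25.7 to 10.7, 11.7 and 11.1 FPKM. KRT19 stayed at or under 0.148 FPKM and CFTR at or under 0.0831 FPKM in every library. Of 4 leukocyte markers in the files LYZ alone was tested and fell (237.9 to 249.9 FPKM summed against 0.486 to 2.29), with PTPRC at 0 throughout. None of the fibroblast, endothelial and erythroid markers in the files passed the level rule, with summed levels of at most 1.85 FPKM. These markers separate the same libraries as the antisense RNAs do, and their part in the results was not tested. In bulk RNA, fewer cells with a transcript and less of it per cell cannot be told apart.

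Between 145 and 168 of the 216 RNAs reached 1 FPKM in a given library, and together they took 0.138 to 0.161% of the reads. Their median mean level was 1.81 FPKM, against 8.03 FPKM for the tested sense genes and 8.14 FPKM for all 11694 tested genes. The lowest mean was 0.611 FPKM (DSCAM-AS1) and the highest 28.2 FPKM (FGD5-AS1), and 13 RNAs had a mean of at least 10 FPKM. The reads behind these values were few for many of them. The median RNA had 127.8 reads in a library, and the deepest library of each RNA held between 27 and 6097 reads. The antisense RNA had a higher mean FPKM than its sense gene in 74 of 212 pairs in the sensitive group and in 70 in the resistant group, and in 34 pairs this order differed between the groups.

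Comparing the resistant with the sensitive libraries asks which antisense transcripts differ between cells selected under lenvatinib and control cells. With limma on log2(FPKM + 1) and an adjusted p under 0.05, 78 of the 216 RNAs were higher in the resistant libraries, 69 were lower and 69 were not called. Among all tested genes 67.7% were called, 35.2% higher and 32.5% lower, so the 68.1% called among antisense RNAs is near this background. Groups did not overlap in 162 RNAs (75%), against 74.4% of all tested genes. The median log2 fold change of the RNAs was -0.01 and the median absolute change 0.82, against 0.08 and 0.75 for all tested genes. The level rule itself fixed part of these counts. Of the 216 RNAs, 40 reached 1 FPKM in sensitive libraries only, and all of them were called lower, while 44 reached it in resistant libraries only, and all of them were called higher. Of the 132 that reached 1 FPKM in at least 1 library of each group, 34 were higher, 29 lower and 69 not called.

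The largest rises are told first for RNAs whose sense gene was silent or nearly so or, for BBOX1-AS1, was not analysed here. Many RNAs and some sense genes named below, rising or falling, reached 1 FPKM in 1 group only. The level rule fixed their direction, so their adjusted p is not separate support for it. ADIRF-AS1 is among them. ADIRF-AS1 is antisense to the adipogenesis regulatory factor gene. It measured 0, 0.0154 and 0.00796 FPKM in the sensitive libraries and 17.1, 16.2 and 14.7 FPKM in the resistant libraries. Its log2 fold change was 4.07 ± 0.11 (SE, adjusted p = 4.78e-07 with limma), from at most 2 reads per sensitive library to at least 1876 in each resistant library. ADIRF itself stayed at or under 0.163 FPKM in every library, so the antisense symbol was read at a level its sense gene did not approach.

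IGFL2-AS1 lies by a gene of the insulin growth factor-like family. Its levels were 0.307, 0.41 and 0.69 FPKM in the sensitive and 21.2, 18.9 and 22 FPKM in the resistant libraries, a log2 fold change of 3.89 ± 0.14 (adjusted p = 1.24e-06). IGFL2 was listed at 0 in 5 of the 6 libraries. DLGAP1-AS2, whose sense gene encodes a postsynaptic scaffold protein, measured 5.33, 2.86 and 11 FPKM in the sensitive libraries and 39.1, 40.2 and 42.5 FPKM in the resistant ones. It was among the most abundant antisense RNAs of the resistant cells and rose by 2.65 ± 0.38 on the log2 scale (adjusted p = 0.000723), while DLGAP1 stayed at or under 0.0296 FPKM throughout. DLGAP1-AS1, the other antisense RNA of that gene, was called in the opposite direction (log2 fold change -0.77, adjusted p = 0.0198 with limma, and 0.0732 without resistant replicate 3). SDCBP2-AS1, opposite the gene of the adaptor protein syntenin-2, measured 0.655, 0.555 and 0.192 FPKM against 6.16, 6.15 and 7.36 FPKM (log2 fold change 2.38 ± 0.16). BBOX1-AS1, named for the last enzyme of carnitine synthesis, measured 0.363, 0.275 and 0.131 FPKM against 6.45, 7.57 and 6.21 FPKM (2.62 ± 0.12). The groups did not overlap for any of these 4 RNAs that rose, which the rule that named them required.

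VPS9D1-AS1 rose beside a sense gene that was expressed in both groups and was not called. It measured 0.302, 0.0427 and 0.397 FPKM in the sensitive libraries and 13.2, 13.6 and 13.7 FPKM in the resistant libraries (log2 fold change 3.55 ± 0.14, adjusted p = 1.72e-06). VPS9D1, which encodes a VPS9 domain protein, measured 4.27, 4.71 and 5.48 against 3.97, 3.83 and 3.94 FPKM (-0.24 ± 0.12, adjusted p = 0.126). The ratio of antisense to sense FPKM thus went from at most 0.0725 in the sensitive libraries to at least 3.32 in the resistant libraries. Its window, printed above, held SP1 motifs at bases 96, 117, 154, 187 and 224.

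Other large rises came with a rise of the sense gene. NRSN2-AS1 measured 0.289, 0.429 and 0.518 FPKM in the sensitive and 8.87, 8.47 and 9.71 FPKM in the resistant libraries (log2 fold change 2.83 ± 0.12). NRSN2, a neurensin gene, rose from 4.97, 4.94 and 5.63 to 20.9, 21 and 20 FPKM. Both genes were higher in every resistant than in any sensitive library, and no exon bases were shared in this pair. SCAMP1-AS1 measured 0.781, 1.51 and 1.43 against 11.9, 10.7 and 12.1 FPKM (2.50 ± 0.16). SCAMP1, a membrane protein of recycling vesicles, rose by less, from 2.57, 2.31 and 1.11 to 4.16, 5.03 and 6.43 FPKM (1.07 ± 0.24, adjusted p = 0.00612).

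**Figure D1:**
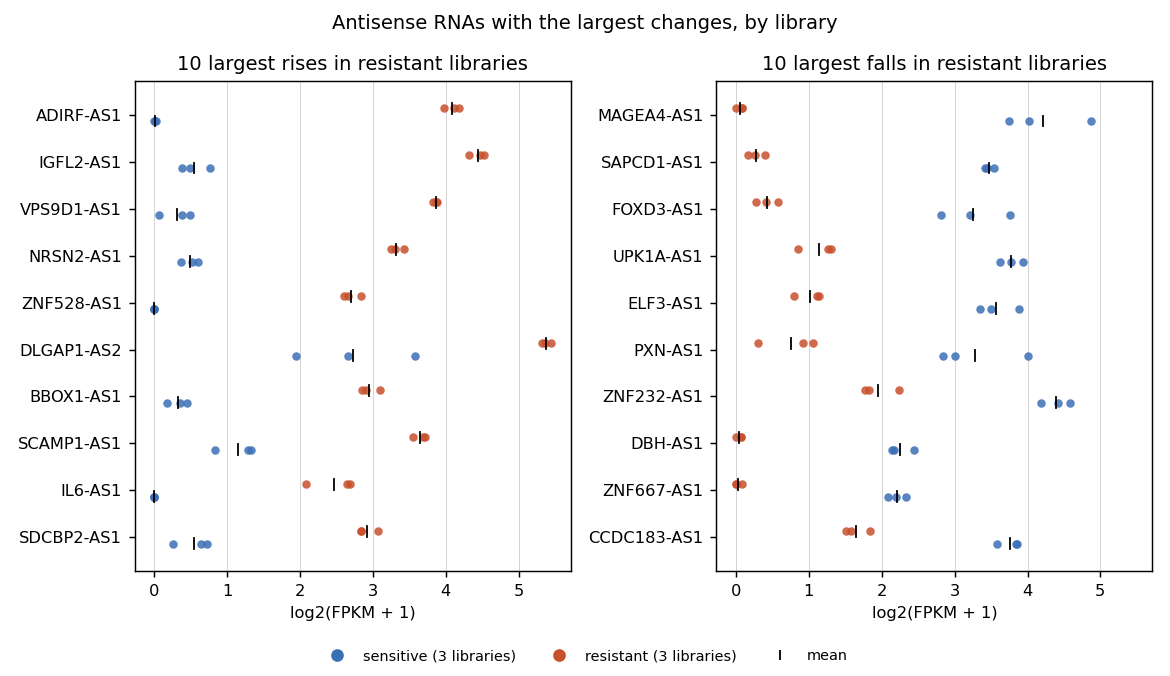
Level of the 10 antisense RNAs with the largest rises (left) and the 10 with the largest falls (right) in each library, as log2(FPKM + 1) on the horizontal axis. Blue points are the 3 sensitive and red points the 3 resistant libraries, and black bars their means. Only RNAs whose groups do not overlap could be chosen. DLGAP1-AS2 shows the widest spread among sensitive libraries of the RNAs that rose, from 2.86 to 11 FPKM.

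The largest fall was that of MAGEA4-AS1. MAGEA4 is a cancer-testis antigen, normally silent outside the germ line. The antisense RNA measured 15.3, 12.4 and 28.2 FPKM in the sensitive libraries and 0, 0.0604 and 0.0604 FPKM in the resistant libraries, which is at most 1 read there (log2 fold change -4.16 ± 0.28, adjusted p = 1.78e-05). MAGEA4 fell with it, from 284, 315 and 307 FPKM to 0.741, 2.26 and 0.938 FPKM (-7.09 ± 0.23). The pair shared 172 exon bases.

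FOXD3-AS1 and UPK1A-AS1 also fell with their sense genes. FOXD3-AS1 measured 6, 8.26 and 12.5 FPKM against 0.496, 0.206 and 0.328 FPKM (log2 fold change -2.84 ± 0.24). FOXD3, a forkhead factor of neural crest and pluripotent cells, went from 1.99, 1.36 and 1.89 FPKM to at most 0.0198 FPKM (-1.44 ± 0.11). The antisense RNA was the more abundant of the 2 in every library, per length. UPK1A-AS1 measured 12.6, 14.4 and 11.3 against 0.803, 1.47 and 1.4 FPKM (-2.64 ± 0.17), and UPK1A, a urothelial membrane protein, went from 5.79, 5.2 and 4.03 to 0.244, 0.577 and 0.595 FPKM (-2.03 ± 0.16).

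Some falls concerned RNAs whose sense gene was under the level rule or was not analysed here. SAPCD1-AS1 measured 9.68, 9.88 and 10.6 FPKM in the sensitive libraries and 0.201, 0.319 and 0.12 FPKM in the resistant libraries (log2 fold change -3.19 ± 0.11). DBH-AS1, named for the enzyme that makes noradrenaline, went from 3.5, 3.41 and 4.46 FPKM to 0, 0.0455 and 0.0454 FPKM (-2.21 ± 0.11), while DBH stayed at or under 0.0564 FPKM. ZNF667-AS1 went from 3.59, 4.03 and 3.26 FPKM to 0, 0.057 and 0 FPKM (-2.18 ± 0.10). All 3 were close to silence in the resistant group. ZNF667 itself measured 0.286, 0.318 and 0.168 FPKM against at most 0.013 FPKM, too low to be tested. MYLK-AS1, named for myosin light chain kinase, fell by 1.48 ± 0.30 on the log2 scale, with MYLK at or under 0.245 FPKM.

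Turning to pairs, both genes were tested in 164 and both were called in 91. In 66 of these 91 pairs (72.5%) the antisense RNA and its sense gene went in the same direction, 33 upwards and 33 downwards. In 25 pairs they went in opposite directions, 10 with the antisense RNA higher and 15 with it lower. The antisense RNA alone was called in 20 pairs and the sense gene alone in 33, and neither was called in 20. Of the 164 tested sense genes 70 were higher, 54 lower and 40 not called, with a median log2 fold change of 0.31. In all, 75.6% of them were called and 42.7% were higher, against 67.7% and 35.2% of all tested genes, whose median was 0.08. Among the 52 RNAs whose sense gene was under the level rule or absent, 24 were higher, 12 lower and 16 not called. Under a test against a 1.5-fold change 39 pairs were called in the same direction and 5 in opposite directions.

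Across the 164 pairs the log2 fold changes of antisense and sense gene correlated with a Pearson coefficient of 0.583 and a Spearman coefficient of 0.52. All points come from the same 6 libraries, and the value is a description. In the 97 pairs in which both genes reached 1 FPKM in both groups, the Pearson coefficient was 0.36 and the Spearman coefficient 0.323, and 21 of 34 pairs with both called (61.8%) went the same way. Pairs with starts within 1000 bases had a Pearson coefficient of 0.638 (n = 70), and pairs with starts farther apart 0.556 (n = 92). The Pearson coefficient was 0.579 in the 132 pairs with shared exon bases and 0.65 in the 30 without. Of pairs with both called, 48 of 68 with shared exon bases and 18 of 23 without went in the same direction. These differences, and the part of shared reads in them, were not tested.

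**Figure D2:**
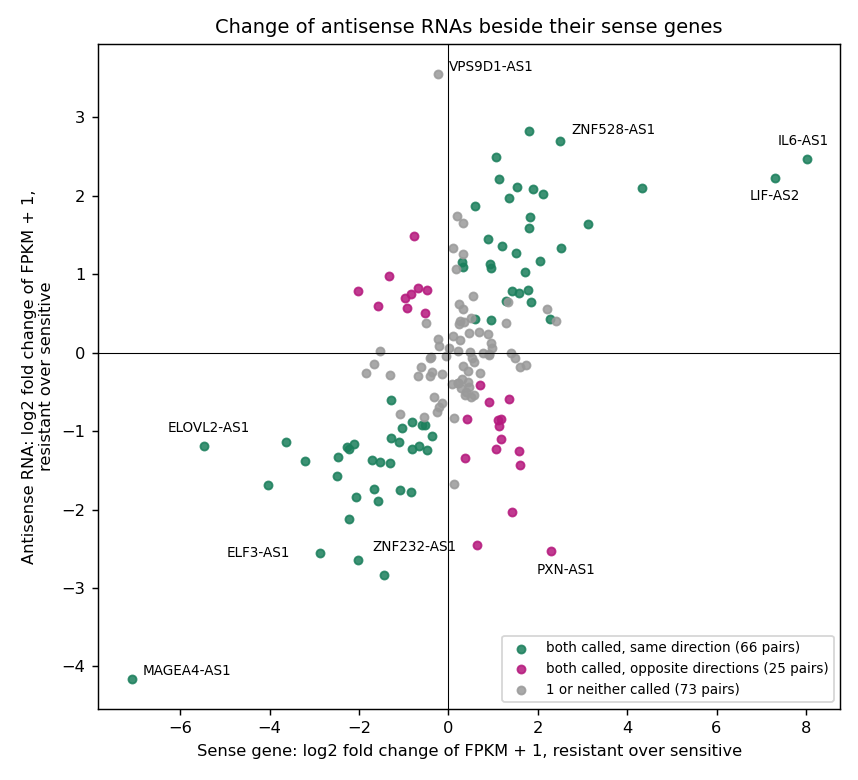
Log2 fold change (resistant over sensitive, of FPKM + 1) of each antisense RNA on the vertical axis against that of its sense gene on the horizontal axis, 1 point per pair for 164 pairs. Green points are the 66 pairs with both genes called in the same direction, purple points the 25 called in opposite directions, and grey points the rest. Most coloured points lie in the lower left and upper right of the plot.

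**Figure D3:**
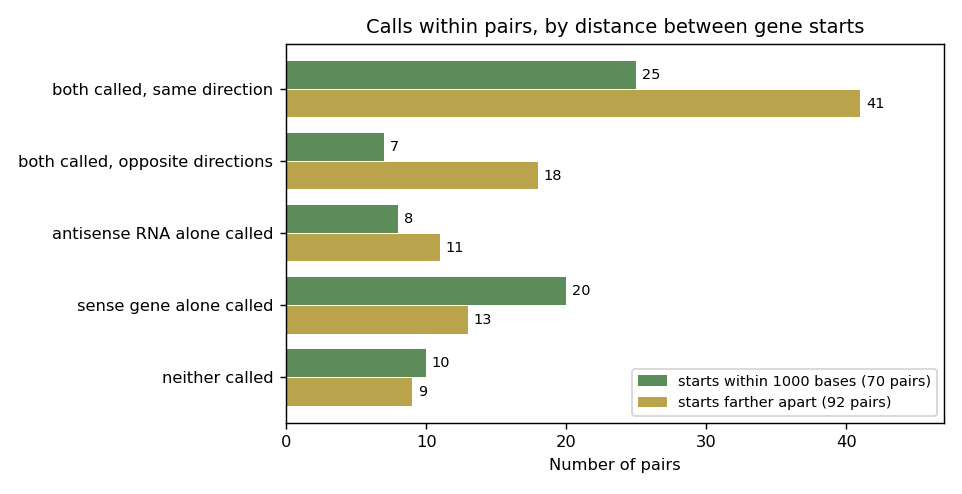
Number of pairs (horizontal axis) by which gene of the pair was called, for 70 pairs with starts within 1000 bases (green) and 92 pairs with starts farther apart (ochre). Both genes were called in the same direction in 25 of the near and 41 of the far pairs, and the sense gene alone was called in 20 and 13.

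Among the pairs that moved together, both genes of the ELF3 pair fell. ELF3 is an ETS factor of epithelial cells. ELF3-AS1 measured 9.14, 10.3 and 13.7 FPKM in the sensitive and 1.17, 1.19 and 0.732 FPKM in the resistant libraries (log2 fold change -2.56 ± 0.18). ELF3 measured 38.3, 47.5 and 64.4 FPKM against 4.88, 6.24 and 6.56 FPKM (-2.87 ± 0.21). The ratio of the 2 lay between 0.213 and 0.238 in the sensitive libraries and between 0.112 and 0.239 in the resistant ones. The resistant ratios were thus more spread and reached lower. CCDC183-AS1, opposite a coiled-coil protein gene, fell from 13.4, 13.4 and 10.9 FPKM to 1.99, 2.58 and 1.85 FPKM (-2.12 ± 0.15), and CCDC183 from 4.97, 6.13 and 15.8 FPKM to 0.923, 0.814 and 1.03 FPKM (-2.22 ± 0.37).

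In 6 of the pairs that rose together the antisense RNA was listed at 0 in every sensitive library, those of ZNF528, IL6, LIF, LBX1, FOXC2 and PAPLN, of which the first 3 are given here. ZNF528-AS1 measured 6.12, 5.05 and 5.33 FPKM in the resistant libraries (log2 fold change 2.70 ± 0.10). Their mean was at least 94.9-fold over the level that 3 reads per sensitive library would give. ZNF528, a KRAB zinc finger gene whose start lies within the window printed above, measured 0, 0.00994 and 0 FPKM against 4.13, 4.59 and 5.48 FPKM (2.51 ± 0.11). The 2 transcripts thus appeared together at near-equal levels per length. IL6-AS1 measured 5.41, 5.23 and 3.23 FPKM in the resistant libraries, a mean at least 82.3-fold over that floor (2.47 ± 0.17). IL6, the inflammatory cytokine that drives acute-phase genes in hepatocytes, measured 0.239, 0.261 and 0.143 FPKM against 317, 308 and 316 FPKM (8.02 ± 0.10, adjusted p = 9.14e-08). LIF-AS2 measured 4.59, 4.11 and 2.59 FPKM, a mean at least 38.5-fold over the floor (2.23 ± 0.17). LIF, a cytokine of the same receptor family, measured 0.166, 0.229 and 0.0789 against 190, 186 and 171 FPKM (7.31 ± 0.11). In both cytokine pairs the antisense RNA was far below its sense gene and shared exon bases with it, 428 in IL6-AS1 and 175 in LIF-AS2.

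**Figure D4:**
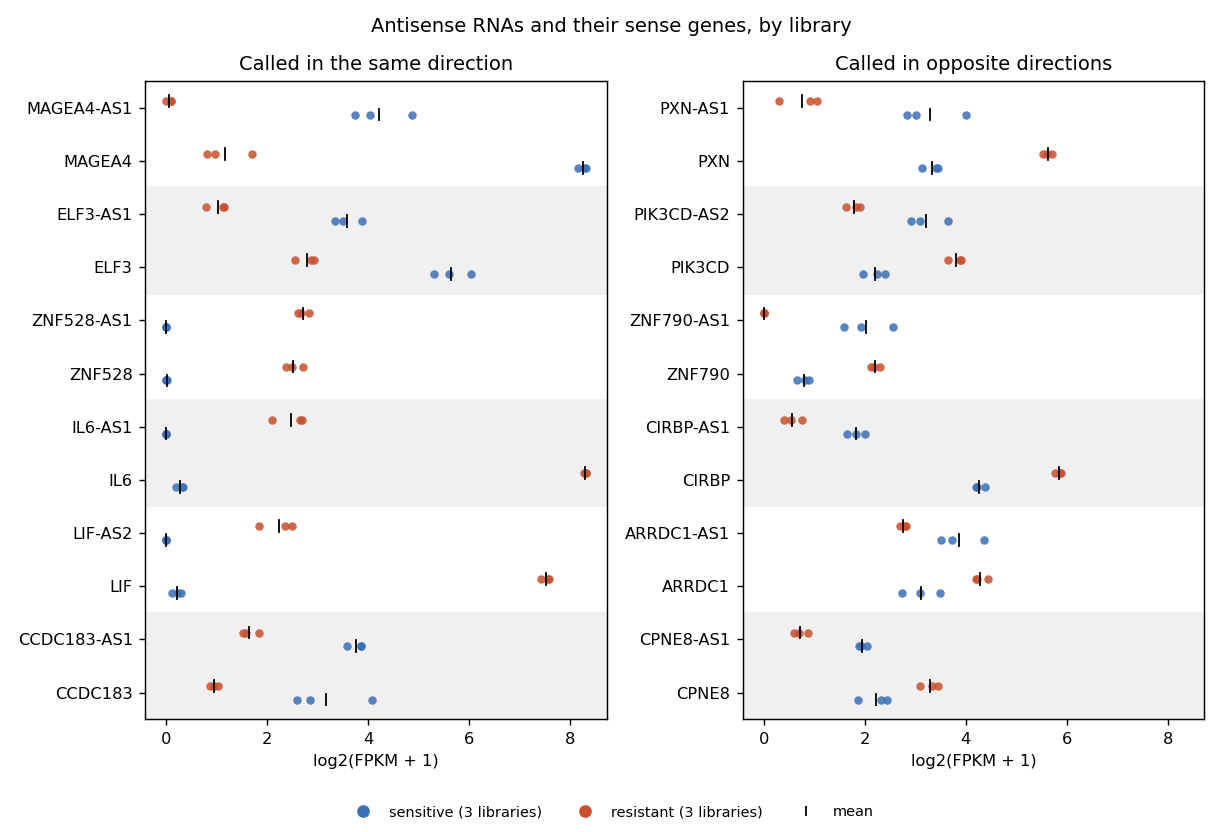
Level of each antisense RNA and, under it, its sense gene in every library, as log2(FPKM + 1) on the horizontal axis, for 6 pairs called in the same direction (left) and 6 in opposite directions (right). Blue points are the 3 sensitive and red points the 3 resistant libraries, and black bars their means. On the right every antisense RNA is lower and every sense gene higher in the resistant libraries, as for PXN-AS1 and PXN.

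In the 6 opposite pairs with the largest changes the antisense RNA fell and the sense gene rose. PXN encodes paxillin, a scaffold of focal adhesions. PXN-AS1 measured 6.15, 7.06 and 15.1 FPKM against 1.07, 0.233 and 0.897 FPKM (log2 fold change -2.53 ± 0.35, adjusted p = 0.000608). PXN rose from 9.65, 9.9 and 7.82 FPKM to 51.5, 48 and 45.2 FPKM (2.29 ± 0.12, adjusted p = 6.68e-06). The antisense RNA was read at 0.637 to 1.93 times the FPKM of PXN in the sensitive libraries and at most 0.0208 times in the resistant ones. Of its exon bases, 38.6% lie in PXN exons.

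PIK3CD, the delta catalytic subunit of phosphoinositide 3-kinase, rose from 2.9, 3.75 and 4.28 FPKM to 13.9, 13.9 and 11.6 FPKM (log2 fold change 1.61 ± 0.16). PIK3CD-AS2 went from 6.5, 7.6 and 11.6 FPKM to 2.11, 2.76 and 2.57 FPKM (-1.43 ± 0.21), and this pair shares no exon bases. The more abundant gene of the pair was the antisense RNA in every sensitive library and PIK3CD in every resistant library. ZNF790-AS1 measured 2.8, 2.01 and 4.9 FPKM in the sensitive libraries and was listed at 0 in the 3 resistant ones. With 3 reads taken as the floor, that is at least 44.1-fold lower than the sensitive mean. ZNF790, a zinc finger gene, rose from 0.861, 0.759 and 0.575 FPKM to 3.38, 3.94 and 3.54 FPKM (1.42 ± 0.11).

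CIRBP encodes a cold-inducible RNA-binding protein and was abundant in both groups. It rose from 17.6, 17.5 and 19.9 FPKM to 58.4, 53.9 and 57.5 FPKM (log2 fold change 1.58 ± 0.10), while CIRBP-AS1 fell from 3.01, 2.11 and 2.53 FPKM to 0.697, 0.449 and 0.318 FPKM (-1.26 ± 0.14). ARRDC1, an arrestin-domain protein of membrane vesicles, and its antisense RNA exchanged order. ARRDC1-AS1 went from 12.2, 10.4 and 19.5 to 5.46, 6.08 and 5.91 FPKM (-1.10 ± 0.22) and ARRDC1 from 5.69, 7.58 and 10.2 to 20.7, 17.4 and 17.7 FPKM (1.18 ± 0.20). CPNE8-AS1 went from 2.79, 2.68 and 3.13 to 0.612, 0.844 and 0.509 FPKM (-1.23 ± 0.11) and CPNE8, a copine that binds membranes in response to calcium, from 4.44, 4.02 and 2.67 to 7.5, 9.87 and 9.07 FPKM (1.07 ± 0.19). The starts of CPNE8 and CPNE8-AS1 lie in 1 window, printed above, and no exon bases are shared.

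ZNF232-AS1 was among the 10 largest falls and was opposite in direction to its sense gene, a zinc finger gene. It measured 20.4, 17.2 and 23 FPKM against 3.7, 2.4 and 2.56 FPKM (log2 fold change -2.45 ± 0.18), and ZNF232 rose from 4.07, 3.82 and 3.03 to 5.97, 5.94 and 6.65 FPKM (0.64 ± 0.13, adjusted p = 0.00471). The antisense RNA was at least 4.5 times as abundant as ZNF232 per length in the sensitive libraries and at most 0.62 times in the resistant ones.

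In 10 pairs the antisense RNA rose and the sense gene fell. PTPRG-AS1 went from 1.66, 1.4 and 0.949 FPKM to 2.92, 3.63 and 2.5 FPKM (log2 fold change 0.78 ± 0.16), while PTPRG, a receptor tyrosine phosphatase, fell from 8.66, 7.28 and 3.61 to 0.653, 0.896 and 0.795 FPKM (-2.01 ± 0.27). PSMA3-AS1 went from 3.31, 2.38 and 1.62 FPKM to 7.35, 9.67 and 8.47 FPKM (1.49 ± 0.21), while PSMA3, a proteasome core subunit, fell from 108, 90.8 and 71.3 to 47.1, 50.2 and 57.1 FPKM (-0.78 ± 0.17). USP2-AS1 went from 0.982, 1.06 and 0.58 to 2.39, 2.26 and 3.42 FPKM (0.97 ± 0.16), while USP2, a deubiquitinase, fell from 1.62, 1.9 and 2.06 FPKM to at most 0.178 FPKM (-1.33 ± 0.09). In all 3 pairs neither gene's groups overlapped. USP2 and USP2-AS1 start 52 bases apart and share no exon bases.

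Grouped by what the sense gene encodes, the 23 RNAs named for transcription factors outside the large zinc finger families included 11 that rose, 8 that fell and 4 not called. The roles were assigned after the values were seen, and of all tested genes 67.7% were called, 35.2% higher and 32.5% lower. The counts by role, here and below, include RNAs that reached 1 FPKM in 1 group only, whose direction the level rule fixed. Of the 18 tested sense genes of the 23 RNAs 11 rose and 5 fell. Here 12 pairs were called in the same direction and 1 in opposite directions. LBX1-AS1 was listed at 0 in the sensitive libraries and measured 3.26, 2.86 and 2.66 FPKM in the resistant ones, a mean at least 50.6-fold over the 3-read floor. LBX1, a homeobox factor of muscle and neural precursors, was likewise listed at 0 in the sensitive libraries and measured 1.67, 1.35 and 1.72 FPKM in the resistant ones. FOXC2-AS1 was listed at 0 against 2, 1.67 and 2.78 FPKM, a mean at least 8.96-fold over the floor. FOXC2, a forkhead factor of mesenchymal and vascular development, measured at most 0.0087 FPKM against 7.78, 8.17 and 7.4 FPKM (log2 fold change 3.13 ± 0.09). In both pairs a developmental factor and its antisense RNA were at or near 0 in the sensitive libraries. Given that, the level rule required at least 1 FPKM in every resistant library, so their levels above 1 FPKM there are not a separate result.

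LBX2-AS1 and HIF1A-AS1 rose with sense genes that were already read in sensitive libraries. LBX2-AS1 measured 5.99, 7.06 and 6.09 against 14.6, 12.8 and 14.9 FPKM (log2 fold change 1.03 ± 0.12), and LBX2 0.512, 1.3 and 0.509 against 4.88, 5.01 and 4.33 FPKM. HIF1A-AS1 measured 0.193, 0 and 0 against 2.12, 1.09 and 1.91 FPKM (1.33 ± 0.17) on at most 54 reads per library. HIF1A, the oxygen-regulated subunit of the hypoxia factor, measured 28.7, 19.6 and 8.52 against 92.4, 106 and 107 FPKM (2.51 ± 0.39).

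Among the transcription factor pairs that fell were those of developmental regulators. PROX1, a homeobox factor of hepatoblasts and lymphatic cells, measured 8.47, 6.86 and 1.49 FPKM against at most 0.0647 FPKM (log2 fold change -2.47 ± 0.47). PROX1-AS1 measured 1.85, 1.6 and 1.24 against 0, 0.0448 and 0 FPKM (-1.33 ± 0.10). NR2F2-AS1 measured 1.32, 1.67 and 1.1 FPKM and was listed at 0 in the resistant libraries, at least 32.3-fold under the sensitive mean. NR2F2, an orphan nuclear receptor, measured 10.9, 11.3 and 6.71 against 1.2, 1.28 and 1.23 FPKM (-2.22 ± 0.20). GATA2-AS1 fell by 0.60 ± 0.12 and GATA2, a factor of blood progenitors, by 1.28 ± 0.22 on the log2 scale. These falls stand beside that of HNF4A, a hepatocyte marker, from 31.9, 34.8 and 22.2 FPKM to at most 0.0999 FPKM, and the part of the marker loss in them was not tested.

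The 16 RNAs named for zinc finger protein genes included 5 that rose, 8 that fell and 3 not called, while 8 of their 15 tested sense genes rose and 5 fell, beside 35.2% higher and 32.5% lower among all tested genes (67.7% called). The median log2 fold change was -0.68 for the RNAs and 0.49 for the sense genes. In 8 pairs the directions matched and in 3 they were opposite. ZNF674-AS1 measured 1.87, 1.94 and 1.77 against 8.41, 8.14 and 8.99 FPKM (log2 fold change 1.74 ± 0.11), and ZNF674, whose start lies 36 bases away, 0.591, 0.722 and 1 against 5.45, 5.06 and 5.18 FPKM (1.82 ± 0.12). ZNF529-AS1 rose by 1.36 ± 0.10 and ZNF529 by 1.20 ± 0.12 on the same scale. ZNF407-AS1 rose by 1.88 ± 0.20 and ZNF407 by 0.60 ± 0.08. ZNF213-AS1 fell by 1.23 ± 0.15 with ZNF213 (-0.82 ± 0.20). Many zinc finger genes are close copies of each other, so the split of reads between them is uncertain.

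The 12 RNAs named for cytokines, growth factors and their signaling proteins included 9 that rose and 3 that fell, and 8 of their 10 tested sense genes rose and 1 fell. Over all tested genes 67.7% were called, with 35.2% higher and 32.5% lower, and this group too was put together with the values in view. In 8 pairs the directions matched and in 1, that of PIK3CD, they were opposite. The counts include RNAs that reached 1 FPKM in resistant libraries only, such as IGFBP7-AS1 and SOCS2-AS1, whose direction the level rule fixed. IGFBP7-AS1 measured 0.109, 0.305 and 0.26 against 4.12, 4.86 and 3.74 FPKM (log2 fold change 2.10 ± 0.12), and IGFBP7, a secreted insulin-like growth factor binding protein, 4.97, 5.69 and 7.85 against 147, 138 and 136 FPKM (4.32 ± 0.16). SOCS2-AS1 measured 0.395, 0.348 and 0.719 against 6.05, 4.25 and 5.65 FPKM (2.08 ± 0.16), and SOCS2, a feedback inhibitor of cytokine receptors, 0.644, 0.401 and 1 against 5.36, 5.02 and 5.11 FPKM (1.89 ± 0.15). SOCS2 and its antisense RNA were thus at similar levels per length in every library.

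SPRY4-AS1 and MAP3K14-AS1 rose from low levels. SPRY4-AS1 measured 0.213, 0.464 and 0.262 against 1.94, 2.53 and 1.46 FPKM (log2 fold change 1.17 ± 0.15), and SPRY4, an inhibitor of receptor tyrosine kinase signaling, 7.7, 7.87 and 8.72 against 36.9, 36.1 and 37.5 FPKM (2.06 ± 0.10). MAP3K14-AS1 rose by 1.13 ± 0.14 and MAP3K14, the NF-kappa-B-inducing kinase, by 0.93 ± 0.24 on the same scale. Among the 3 that fell, MIF-AS1 measured 5.51, 6.09 and 7.62 against 1.63, 1.19 and 1.11 FPKM (-1.68 ± 0.15). MIF, a macrophage inhibitory cytokine, measured 360, 398 and 466 against 451, 411 and 462 FPKM with overlapping groups and was not called (0.12 ± 0.12, adjusted p = 0.412), though it was 0.22 (adjusted p = 0.0361) without sensitive replicate 3. MAPKAPK5-AS1 measured 9.02, 9.36 and 10.5 against 3.22, 3.89 and 3.35 FPKM (-1.25 ± 0.12), a larger fitted change than that of MAPKAPK5, a stress-activated kinase (-0.48 ± 0.13, adjusted p = 0.0128, and 0.0505 without resistant replicate 3). The difference between the 2 genes was not tested.

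The 11 RNAs named for genes of the cytoskeleton and of adhesion included 3 that rose, 6 that fell and 2 not called, and 7 of the 9 tested sense genes rose and 1 fell, where 67.7% of all tested genes were called, 35.2% higher and 32.5% lower. In 4 pairs the directions matched and in 3 they were opposite. VIM, the intermediate filament protein of mesenchymal cells, measured 96.3, 106 and 68.9 against 328, 303 and 301 FPKM (log2 fold change 1.79 ± 0.17). VIM-AS1 measured 1.2, 1.15 and 0.725 against 3.24, 2.4 and 1.99 FPKM (0.80 ± 0.17). TIAM1-AS1 measured 2.18, 2.21 and 1.55 FPKM and was listed at 0 in the resistant libraries, at least 10.7-fold under the sensitive mean. TIAM1, an exchange factor for the GTPase Rac, fell from 5.38, 5.54 and 3.6 FPKM to at most 0.0596 FPKM (-2.48 ± 0.15).

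The 12 RNAs named for metabolic enzymes included 5 that rose, 3 that fell and 4 not called, and of their 7 tested sense genes 2 rose and 4 fell. The share called among these RNAs is near the 67.7% of all tested genes (35.2% higher, 32.5% lower). In 3 pairs the directions matched and in none were they opposite. ELOVL2, an elongase of polyunsaturated fatty acids made in liver, measured 66.1, 64.1 and 32.2 FPKM against at most 0.459 FPKM (log2 fold change -5.48 ± 0.30), and ELOVL2-AS1 measured 1.08, 1.13 and 1.7 FPKM against at most 0.0121 FPKM (-1.19 ± 0.11). IDH1, cytosolic isocitrate dehydrogenase, measured 165, 156 and 211 against 35.2, 40.8 and 49.6 FPKM (-2.06 ± 0.17), and IDH1-AS1 2.62, 2.79 and 7.78 against 1.09, 0.0517 and 0.207 FPKM (-1.83 ± 0.40). DHRS4, a carbonyl reductase, went the other way with its antisense RNA. DHRS4-AS1 measured 0.133, 0.241 and 0.151 against 3.55, 4.05 and 3.68 FPKM (2.02 ± 0.09), and DHRS4 0.639, 0.595 and 0.173 against 5.64, 4.32 and 6.24 FPKM (2.13 ± 0.18). DHRS4 has close paralogues beside it, so its reads may be split between copies.

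Few RNAs were listed at 0 throughout a group. In all, 9 RNAs were listed at 0 in every sensitive library and 3 in every resistant library. Besides those named above, PAPLN-AS1 measured 3.95, 3.38 and 3.57 FPKM in the resistant libraries, a mean at least 80.9-fold over the 3-read floor. PAPLN, an extracellular matrix protein, measured 1.2, 1.33 and 1.09 FPKM there against at most 0.00408 FPKM. The resistant mean of AADACL2-AS1 was at least 38.8-fold, that of PRR34-AS1 at least 32.1-fold and that of SERTAD4-AS1 at least 14.8-fold over the same floor. PRR34 and SERTAD4 themselves stayed at or under 0.315 FPKM in every library.

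Of the 6 RNAs with the highest mean level 3 were not called, and the other 3, DLGAP1-AS2 above and 2 described next, rose. FGD5-AS1 measured 30, 29.7 and 23.7 FPKM in the sensitive and 25.7, 26.3 and 33.4 FPKM in the resistant libraries, with overlapping groups (log2 fold change 0.03 ± 0.15, adjusted p = 0.867 with limma). FGD5, an endothelial exchange factor, was at or under 0.0173 FPKM. NUTM2A-AS1 measured 15.1, 14.7 and 17.1 against 19.9, 17.4 and 17.8 FPKM (0.22 ± 0.11, adjusted p = 0.126), and without sensitive replicate 3 it was 0.28 (adjusted p = 0.0145). HSD17B1-AS1 measured 11.5, 12.4 and 22.5 against 14.1, 13.7 and 14.9 FPKM (-0.05 ± 0.24, adjusted p = 0.858), and 85.2% of its exon bases lie in HSD17B1, the gene of an oestradiol-forming enzyme, which was called lower (-0.38 ± 0.10). Without the sensitive replicate 3 the HSD17B1-AS1 value was 0.24 (adjusted p = 0.0285), in the other direction.

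PITPNA-AS1 rose from 9.56, 10.1 and 7.87 to 23.3, 23.1 and 24.2 FPKM (log2 fold change 1.27 ± 0.12, adjusted p = 0.000102). PITPNA, a phosphatidylinositol transfer protein, rose with it, from 22.1, 24.8 and 24.9 to 67.7, 68.5 and 72.5 FPKM (1.50 ± 0.10). EPB41L4A-AS1 measured 8.66, 7.5 and 26.7 against 32, 30 and 28.9 FPKM (1.25 ± 0.43, adjusted p = 0.0355), and EPB41L4A stayed under 0.21 FPKM. The sensitive replicate 3 lay next to the resistant libraries, and the adjusted p was between 0.0885 and 0.106 when any library other than that one was left out, and 4.26e-07 (log2 fold change 1.79) without it.

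OIP5-AS1, a long cytoplasmic RNA, had the most reads in 1 library of any RNA in the set, 6097. It fell from 14.4, 13 and 11.1 FPKM to 4.35, 5.4 and 5.86 FPKM (log2 fold change -1.16 ± 0.15, adjusted p = 0.000482). OIP5, a protein of centromere assembly, fell from 30.9, 30.2 and 25.1 to 5.87, 5.71 and 5.97 FPKM (-2.11 ± 0.12). TMPO-AS1 fell from 5.7, 5.92 and 3.74 to 0.751, 0.787 and 0.73 FPKM (-1.78 ± 0.16) with TMPO, a lamina-associated protein (-0.83 ± 0.16).

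At the edge of the level rule the third highest values of MNX1-AS1, CCDC18-AS1 and MCM3AP-AS1 were 1.00, 1.01 and 1.03 FPKM, and those of ATP2C2-AS1, TMC3-AS1 and CFLAR-AS1, just outside, were 0.982, 0.972 and 0.969 FPKM. Just inside, MNX1-AS1 measured 0.46, 0.455 and 0.81 FPKM in the sensitive and 2.02, 1 and 1.52 FPKM in the resistant libraries, and MCM3AP-AS1 0.86, 0.914 and 0.186 against 1.03, 1.8 and 2.2 FPKM. TMC3-AS1 measured 1.55, 0.972 and 1.68 FPKM in the sensitive libraries and at most 0.188 FPKM in the resistant ones. Group patterns of the same kind thus exist just under the rule.

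The machinery that handles antisense and double-stranded RNA was read in the same fit. Of 30 genes of nuclear RNA decay and nonsense-mediated decay 16 rose, 4 fell and 10 were not called, with a median log2 fold change of 0.52. EXOSC6, a ring subunit of the exosome, measured 6.91, 7.01 and 8.82 against 34.3, 35 and 39.4 FPKM (2.12 ± 0.13). UPF3B, an exon junction adaptor of nonsense-mediated decay, rose by 2.07 ± 0.16, SMG6, an endonuclease of that pathway, by 1.93 ± 0.11 and NCBP3, a cap-binding protein, by 1.71 ± 0.30 on the log2 scale. The 4 that fell were EXOSC4, RBM7, SRRT and UPF1. The median of all tested genes was 0.08, and 67.7% of them were called, 35.2% higher and 32.5% lower.

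Of 27 genes that edit, process or sense double-stranded RNA 23 were tested, of which 6 rose, 7 fell and 10 were not called (median log2 fold change -0.18). Of all tested genes 67.7% were called, 35.2% higher and 32.5% lower. OAS1, a synthetase activated by double-stranded RNA, measured 3.03, 3.91 and 5.17 FPKM against at most 0.105 FPKM (-2.22 ± 0.16), and OAS3 fell by 1.45 ± 0.20. AGO2, the slicing Argonaute protein, measured 2.32, 2.25 and 1.83 against 10.7, 11.8 and 12 FPKM (2.00 ± 0.12), and ADARB1, an adenosine deaminase acting on double-stranded RNA, rose by 0.98 ± 0.10. DICER1, which cuts double-stranded RNA, was not called (-0.55 ± 0.33, adjusted p = 0.173), but was called lower without sensitive replicate 3 (-0.95, adjusted p = 0.000141) and with quantile normalization (-0.69, adjusted p = 0.0410). Its antisense RNA DICER1-AS1 fell from 1.07, 1.3 and 1.41 to 0.35, 0.158 and 0.347 FPKM (-0.82 ± 0.10). Of 10 chromatin proteins reported to bind antisense RNAs 2 rose, 3 fell and 5 were not called, beside 67.7% called among all tested genes. EZH2, the methyltransferase of a Polycomb repressive complex, rose by 0.98 ± 0.19 and WDR5, a subunit of trithorax-type complexes, by 0.55 ± 0.14, and the DNA methyltransferases DNMT3B and DNMT1 fell by 1.67 ± 0.25 and 0.52 ± 0.11.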

How the data were processed

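RNA-seq of 6 libraries (3 sensitive, 3 resistant, grouped by title) was analysed. The authors deposited 1 value per gene symbol and library, taken as FPKM from the values (or RPKM, which the values cannot tell apart from it). The submitters' processing notes name cutadapt and HISAT2. For their versions, the counting program, the build, the annotation and the strand setting, the entry is "not given in the sources used here". Values were whole reads for 22519 of 22521 genes (99.99%, within 0.002 reads), the smallest numbers compatible with the values, which gave the library totals. Reads or fragments without molecular identifiers cover counting error only.

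The 11694 genes that reached 1 FPKM in 3 or more libraries were tested with limma 3.58.1 in R 4.3.3 (limma-trend, two-sided) on log2(FPKM + 1) in 1 fit of 2 groups, with Benjamini-Hochberg adjustment over all tested genes. Because of the added 1, log2 fold changes understate the change of low genes, and ± is the standard error from limma. The fit was also run on simulated data in which far fewer genes changed than were called here. That run therefore cannot show how the fit performs on these libraries. Floors are 3 reads per library, and each fold against a floor uses the mean of the other group. Pair geometry came from GENCODE release 29 and windows from RefSeq, neither of which may be the authors' annotation. Tables used Python 3.11.15, pandas 2.3.3 and numpy 2.4.6, and figures matplotlib 3.10.9.

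The members and lists were chosen with earlier results of these data known. The rule for named genes takes the 10 largest rises and falls among called RNAs whose groups do not overlap, the 6 highest means, the 6 pairs in each relation of direction with the largest smaller change, the 3 RNAs on each side of the level rule and the 4 largest called changes of each machinery list. The grouping by role of the sense gene, the windows printed and the other RNAs named were chosen after the values were seen. A result on 1 further pair is not reported here. Alternatives were 2 other scalings, 2 other filters, a pseudocount of 0.1, 2 other forms of limma, a test against a 1.5-fold change, a replicate block, each library left out and, chosen after seeing the data, voom on whole reads.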

Additional observations from a re-analysis of the deposited data

How the results depend on the processing

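Of 127 antisense RNAs, sense genes and machinery genes named in the text and called, 105 kept call and direction under every alternative that tested them. The call was lost under at least 1 alternative for 22, and 0 changed direction. With a mean of at least 5 FPKM required, only 59 of the 134 named genes, called or not, were tested. No antisense RNA called in the comparison of all 6 libraries was called in the opposite direction under any alternative. HSD17B1-AS1, not called in that comparison, is given below. With a mean of at least 5 FPKM required, 33 antisense RNAs were left, 4973 genes were called, 13 antisense RNAs were higher and 13 lower, 37 sense genes were higher, and 4 pairs had the same and 4 opposite directions; fewer genes are tested there by construction. Against a 1.5-fold change, a stricter test by construction, 4357 genes were called, 48 antisense RNAs were higher and 43 lower, 41 sense genes were higher and 32 lower, 39 pairs had the same and 5 opposite directions, and 12 machinery genes were called. With each library left out, 6675 to 9442 genes, 62 to 87 higher and 65 to 82 lower antisense RNAs, 61 to 86 higher and 48 to 58 lower sense genes, 60 to 81 same and 17 to 31 opposite pairs, and 26 to 45 machinery genes were called. FGD5-AS1, not called, was -0.028 with scaling to the geometric mean sample and between -0.087 (without resistant replicate 3) and 0.098 with a library left out, and HSD17B1-AS1 between -0.22 and 0.24 (without sensitive replicate 3); the cause was not tested. The EPB41L4A-AS1 call was also lost with no filter (adjusted p = 0.0760) and with scaling to the geometric mean sample (0.0560), and that of MCM3AP-AS1 under several alternatives. With the replicate number as a block, 7193 genes, 71 higher and 69 lower antisense RNAs and 63 same and 21 opposite pairs were called; same-numbered libraries deviated with r = -0.42, 0.07 and -0.23, so the numbers were not taken as pairs. Voom on whole reads called 7827 genes, 69 higher and 67 lower antisense RNAs. Quantile normalization called 67 higher and 82 lower antisense RNAs, and scaling to the geometric mean sample 75 higher and 77 lower. Which direction held more antisense calls thus depended on the scaling. Without a filter 10039 of 22521 genes were called. The few reads of low RNAs, a median of 127.8 per library, limit the precision.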
